A study of Rattus norvegicus with 4 samples.

Results

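The 9 lysosomal cathepsin genes Ctsa, Ctsb, Ctsc, Ctsd, Ctsh, Ctsk, Ctsl, Ctss and Ctsz and the cystatin C gene Cst3 were followed in rat alveolar macrophages exposed to titanium dioxide particles. They were taken as every gene probe on the array whose accession, without version, belongs to 1 of these 10 genes, out of 16581 named genes, and each of the 10 had exactly 1 probe. Expression was measured in NR8383 cells, an established line grown from the lung washings of a normal rat, after 20 passages. The 4 cultures (replicates 1 to 4) had been seeded 48 h earlier in flasks of 25 cm2 and received titanium dioxide of the NM105 (P25) type, which contains both anatase and rutile crystals, at 3 cm2 of particle surface per cm2 of culture for 4 h. Each culture's total RNA was converted to Cy3-labelled cRNA and read on its own 1-colour Agilent array, and per the labels these are biological replicates. The study set exposed against untreated cultures, but the untreated ones were not analysed here. No value below is therefore an effect of the particles and no test between groups was run: the values describe which of the 10 genes gave signal in exposed cells, and how far the 4 arrays differed. In such bulk samples, fewer cells that express a gene and less of its RNA per cell cannot be told apart.

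Cathepsins are the proteases of the lysosome, the acidic compartment in which a macrophage digests what it has engulfed. They are made as inactive precursors, carried from the Golgi on mannose 6-phosphate receptors and activated by cleavage in the acid interior. Most, among them cathepsins B, C, H, K, L, S and Z, use an active-site cysteine, cathepsin D uses aspartates and cathepsin A a serine. Cystatin C is a small secreted protein that fits into the active site of the cysteine cathepsins and blocks them. It does not inhibit cathepsins A and D.

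Most of these genes were detected and 1 was not. Of the 10 genes, 9 gave signal well above background on all 4 arrays, and Ctsk did on none. The share of all named genes was 35.2% for signal on all 4 arrays and 53.7% for signal on none. Detection rests on the flag that Agilent's software sets per spot. The arrays themselves differed in brightness: among probes detected on all arrays, the 75th percentile of signal stood at 1431, 585, 767 and 831 intensity units for replicates 1 to 4. A level below is log2 signal minus this value of its own array. Levels place 1 gene on different arrays and do not rank genes, because each probe has its own brightness.

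**Figure D1:**
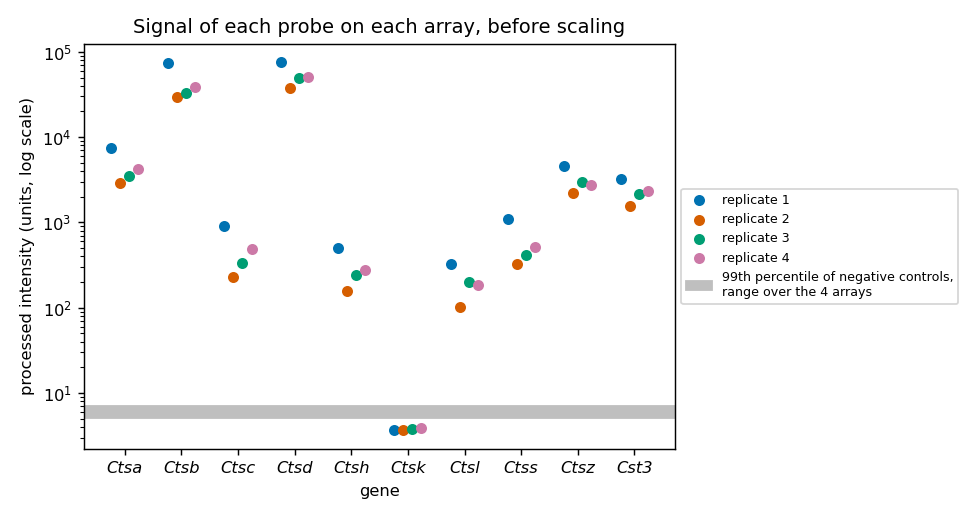
Processed intensity (units, log scale) of the probe of each of the 10 genes on the 4 arrays, before scaling between arrays, with the range over arrays of the 99th percentile of negative control spots as a grey band. Ctsk lies at 3.65 to 3.90 units, under the band, and the other genes lie at least 15.6 times above the value of their own array. The heights of different genes are not comparable.

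Ctsk encodes cathepsin K, a collagen-cleaving cysteine protease best known from osteoclasts. Its probe read 3.69, 3.65, 3.77 and 3.90 intensity units on replicates 1 to 4. The 99th percentile of the 308 negative control spots was 6.66, 6.60, 5.14 and 7.05 units on the same arrays, so the Ctsk signal was 0.55 to 0.73 times that value. Ctsk was thus not well above background on any array. Scaling spreads this near-constant background over an SD of 0.54 on the log2 scale, which is no measure of Ctsk, since its unscaled SD was 0.042. Of the osteoclast markers, Acp5, Calcr and Oscar were likewise detected on no array, Itgb3 on 1, and Nfatc1 and Mmp9, which other myeloid cells also express, on all 4.

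The gene order of the rat genome places Ctss close to Ctsk, with a pseudogene and an unnamed gene model between them. Their promoter windows are printed because the first of the pair gave signal on every array and the other on none. Each runs from 250 bases before to 50 after the gene start (RefSeq, GRCr8), and capitals mark matches to GAGGAA, a core of sites for the myeloid factor PU.1, and to GAAA, any 2 bases and GAAA again, a core of interferon response elements, on either strand. The windows are chr2:185775146-185775445 for Ctss and chr2:185747298-185747597 for Ctsk, both on the plus strand.
Ctss: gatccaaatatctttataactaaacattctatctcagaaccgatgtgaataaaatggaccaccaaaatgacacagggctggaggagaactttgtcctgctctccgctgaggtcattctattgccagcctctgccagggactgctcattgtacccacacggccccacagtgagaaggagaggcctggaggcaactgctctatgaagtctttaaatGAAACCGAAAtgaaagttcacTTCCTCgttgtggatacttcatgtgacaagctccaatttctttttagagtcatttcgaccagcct
Ctsk: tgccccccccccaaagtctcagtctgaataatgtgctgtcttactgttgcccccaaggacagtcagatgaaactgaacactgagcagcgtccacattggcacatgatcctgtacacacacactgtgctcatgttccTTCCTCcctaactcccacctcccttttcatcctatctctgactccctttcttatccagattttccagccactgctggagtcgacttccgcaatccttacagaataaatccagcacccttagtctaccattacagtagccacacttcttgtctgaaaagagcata
The Ctss window holds the interferon element core GAAACCGAAA from base −36 and a GAGGAA core, read on the other strand, from base −15. In the Ctsk window only a GAGGAA core was found, from base −114 on the other strand. The interferon core occurs in 3.92% of 33469 promoter windows and in 1 of the 9 windows of these genes that were in the table. GAGGAA occurs in 27.6% of all windows and in 6 of the 9. A match of letters shows neither a bound site nor a cause.

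Ctss encodes cathepsin S, a cysteine protease that stays active at neutral pH and trims the invariant chain of MHC class II in antigen-presenting cells. Its intensity was 1109, 325, 421 and 514 units on replicates 1 to 4, and its level −0.37, −0.85, −0.87 and −0.69. The mean was −0.69 ± 0.23 (SD, n = 4). Replicate 1 was the highest array and replicates 2 and 3 lay together at the bottom in the main scaling. Without replicate 1 the SD was 0.095. Cd74, the invariant chain gene, was not well above background on any array.

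Ctsl encodes cathepsin L, a broad endopeptidase of the lysosome, and of the 4 members printed at 10 spots it had the arrays most clearly apart. Its spots read (geometric mean, as for all such genes) 323, 103, 203 and 185 intensity units on replicates 1 to 4. The levels were −2.15, −2.50, −1.92 and −2.17, with a mean of −2.18 ± 0.24 (SD, n = 4). Replicate 3 was highest and replicate 2 lowest, and both held this place under all 5 alternatives (normexp background correction, quantile normalization, scaling to the median or over all probes, and a correction for the spot's column). Without replicate 2 the SD was 0.13. The SD between spots within an array was 0.043, 0.11, 0.053 and 0.12. Replicates 1 and 4 differed by 0.019, less than this spot error. Spots of 1 array lay wholly above those of another in 4 of the 6 pairs of arrays. The pairs that overlapped were replicates 1 and 4 and replicates 2 and 4. Over the 969 probes with 10 or more spots and signal on all 4 arrays, the median was 2 pairs without overlap, and 19.7% had at least 4. The highest and the lowest array were 0.58 apart on the log2 scale. Spots of 1 array share the RNA of 1 culture, so this sets arrays apart and covers culture, extraction, labelling and hybridisation together.

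**Figure D2:**
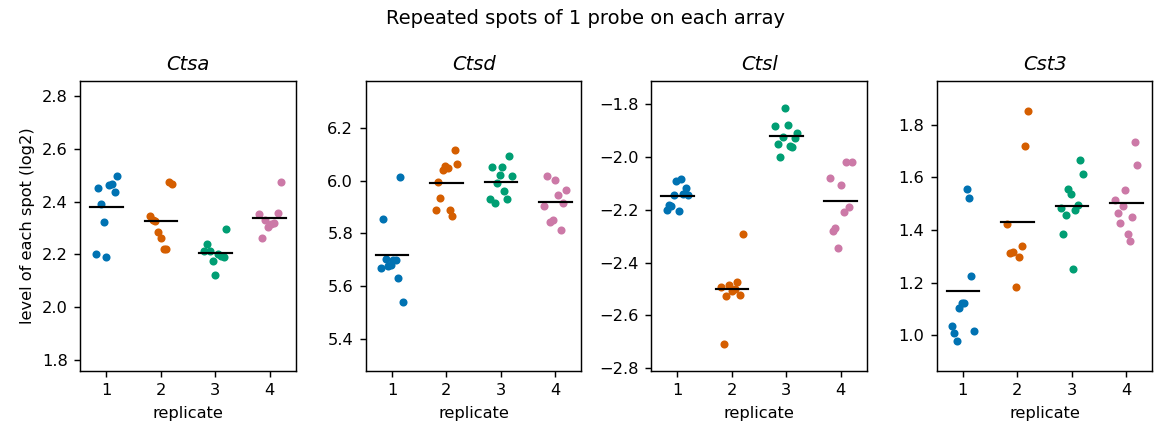
Level (log2, relative to the array's 75th percentile) of each spot of the 4 genes printed at 10 spots, on each array. Outlier spots are left out. The mean is a black line, and the vertical span has equal length in all panels. The Ctsl spots of replicate 3 lie above those of the other arrays, and for Ctsa, Ctsd and Cst3 every pair of arrays overlaps. Replicate 1 overlaps replicates 2 and 3 for Ctsd, and replicates 3 and 4 for Cst3, only through its spots in columns 1 to 41. The Ctsd spot there is the highest on replicates 2 and 3 as well.

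Ctsb encodes cathepsin B, a cysteine protease that cuts both inside chains and dipeptides from their ends. It was printed at 1 spot, with 74639, 29392, 33067 and 39015 intensity units on replicates 1 to 4. The levels were 5.71, 5.65, 5.43 and 5.55, with a mean of 5.58 ± 0.12 (SD, n = 4). Replicate 3 was the lowest array under the main scaling and all 5 alternatives, while the highest was replicate 1 in the main scaling and replicate 2 when arrays were scaled to their median or over all probes. Without replicate 3 the SD was 0.073, and after quantile normalization it was 0.288, below only that of Ctsc among the 9 genes.

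The exopeptidase genes Ctsc, Ctsh and Ctsz, whose proteins trim chains from their ends, differed in spread. Ctsc encodes cathepsin C, which removes dipeptides and activates the serine proteases of granulocytes. It gave 902, 227, 335 and 483 intensity units on replicates 1 to 4 and levels of −0.67, −1.366, −1.196 and −0.78. The mean was −1.003 ± 0.332 (SD, n = 4), and the highest array was 1.62 times the lowest. This SD was the widest among the 9 detected genes, except after normexp correction, where it was 0.275 and that of Ctss 0.279. Replicates 1 and 4 were the high arrays and replicates 2 and 3 the low ones. Replicate 2 was lowest under all 5 alternatives, and replicate 1 highest in 4 of them, with replicate 4 above it when scaled over all probes.

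Ctsh encodes cathepsin H, mainly an aminopeptidase, which in lung also takes part in surfactant protein maturation. Its probe, at 1 spot, gave 501, 157, 243 and 276 intensity units and levels of −1.51, −1.89, −1.66 and −1.59. The mean was −1.66 ± 0.16 (SD, n = 4). Replicate 2 lay below the other 3 arrays, and without it the SD was 0.077. Ctsz encodes cathepsin Z, also called X, a carboxypeptidase of macrophages and other immune cells. It gave 4636, 2218, 2943 and 2766 intensity units and levels of 1.70, 1.92, 1.94 and 1.73, with a mean of 1.82 ± 0.13 (SD, n = 4). Replicates 2 and 3 were high and replicates 1 and 4 low. This order did not hold in general, since replicate 1 was highest after normexp background correction and replicate 4 lowest after quantile normalization.

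Ctsd encodes cathepsin D, the main aspartic protease of the lysosome. Its 10 spots, with outliers left out, read 75198, 37167, 48972 and 50217 intensity units on replicates 1 to 4. The levels were 5.716, 5.990, 5.996 and 5.917, with a mean of 5.90 ± 0.13 (SD, n = 4). Replicate 1 was the lowest array in the main scaling and in 4 of 5 alternatives, and the highest after quantile normalization. The spots of every pair of arrays overlapped. On replicate 1 the 1 spot in columns 1 to 41 read 92324 units, and the 9 spots in the other columns 66566 to 82832. These 9 reached a level of at most 5.855, under the lowest spot of replicate 2 (5.865) and of replicate 3 (5.917). Only the spot in columns 1 to 41 thus made replicate 1 overlap replicates 2 and 3. That spot was also the highest on replicates 2 and 3, at 6.116 and 6.094 against 6.012 on replicate 1. Position by position, every Ctsd spot was lower on replicate 1 than on replicates 2 and 3 in the main scaling. Without replicate 1 the SD was 0.044. No spot on any array was saturated.

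Promoter windows were read for 9 of the 10 genes, and that of Ctsb was not analysed here. Of these, only that of Ctsd held CACGTG, the letters at the centre of the CLEAR element through which TFEB and its relatives switch on lysosomal genes. The window is chr1:206968772-206969071 on the minus strand (RefSeq, GRCr8), printed in the direction of the gene with CACGTG in capitals.
Ctsd: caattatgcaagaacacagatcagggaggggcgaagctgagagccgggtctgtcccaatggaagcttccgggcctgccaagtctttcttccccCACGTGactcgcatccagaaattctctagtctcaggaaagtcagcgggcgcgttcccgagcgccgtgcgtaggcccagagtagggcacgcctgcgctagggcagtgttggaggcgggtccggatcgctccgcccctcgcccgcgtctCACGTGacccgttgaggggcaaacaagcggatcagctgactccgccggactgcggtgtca
The matches start at bases −157 and −10, and both lie in a match to TCACGTG on 1 or both strands. No variants of these letters were searched for. CACGTG occurs in 6.42% of all windows and the longer TCACGTG in 3.20%. Ctsl is printed beside it as a member without CACGTG, with matches to the GC box GGGCGG in capitals, at chr17:769854-770153 on the plus strand.
Ctsl: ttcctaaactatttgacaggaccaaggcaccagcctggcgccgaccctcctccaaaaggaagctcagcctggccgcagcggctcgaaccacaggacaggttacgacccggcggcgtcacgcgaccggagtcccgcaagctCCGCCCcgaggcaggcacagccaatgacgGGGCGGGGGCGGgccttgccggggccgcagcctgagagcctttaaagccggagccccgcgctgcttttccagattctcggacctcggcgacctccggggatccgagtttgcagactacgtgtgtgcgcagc
The Ctsl window holds GGGCGG at bases −81 and −75, 1 directly after the other, and at −110 on the other strand. Of the 9 windows, 7 held a GC box, against 33.1% of all windows. The Ctsl window was 66.7% G and C and that of Ctsd 63.0%, while the windows of Ctsk and Ctss, where no GC box was found, were at 48.3% and 45.3%. The median over all windows was 51.7%.

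Ctsa encodes cathepsin A, a serine carboxypeptidase that also holds the lysosomal enzymes beta-galactosidase and neuraminidase in a protective complex. Its 10 spots, with outliers left out, read 7446, 2934, 3536 and 4209 intensity units on replicates 1 to 4. The levels were 2.38, 2.33, 2.20 and 2.34. The mean was 2.31 ± 0.076 (SD, n = 4), the narrowest spread among the 9 genes in the main scaling. Other genes were narrowest after normexp correction (Ctsd, 0.078) and quantile normalization (Ctsz, 0.087), and without replicate 1 (Cst3, 0.040) or replicate 2 (Ctsh, 0.077). The highest array was 1.13 times the lowest, and the spots of every pair of arrays overlapped. On replicate 1 most Ctsa spots lay in columns 1 to 41, at levels of at least 2.322. The others, in columns 136 and 146, were at 2.191 and 2.201. Both lay under the lowest spot of replicate 2 (2.22) and of replicate 4 (2.264). The place of replicate 1 as highest array thus rested on its spots in columns 1 to 41. After the correction for the spot's column it was still highest, and the SD was 0.068. Replicate 3 was lowest under all 5 alternatives, and without it the SD was 0.031. The partners of cathepsin A were both detected on all 4 arrays, Glb1 for beta-galactosidase at −1.74 ± 0.054 and Neu1 for neuraminidase at −2.83 ± 0.35 (SD, n = 4 each).

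Cst3, the inhibitor gene, read 3218, 1578, 2158 and 2355 intensity units over its spots on replicates 1 to 4. Its levels were 1.169, 1.431, 1.492 and 1.502, with a mean of 1.40 ± 0.16 (SD, n = 4). Replicate 1 was lowest and replicate 4 highest under the main scaling and all 5 alternatives. Replicates 3 and 4 differed by 0.010, and without replicate 1 the SD was 0.040. The spots still overlapped between every pair of arrays, with a spot SD of 0.21, 0.23, 0.12 and 0.12. On replicate 1 the 2 Cst3 spots in columns 1 to 41 of the array read 4110 and 4212 units, and the 8 spots in the other columns 2819 to 3347. These 8 reached a level of at most 1.226, under the lowest spot of replicate 3 (1.253) and of replicate 4 (1.357). Only the 2 spots in columns 1 to 41 thus made replicate 1 overlap replicates 3 and 4. Over all probes with 10 or more spots, spots in columns 1 to 41 of replicate 1 lay 0.059 above their probe's mean on the log2 scale (median of 2149 spots). Subtracting such medians left the Cst3 SD at 0.15. The 2 Cst3 spots there were at 1.52 and 1.56, against the probe's mean of 1.169, so this took away only a small part of their excess.

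**Figure D3:**
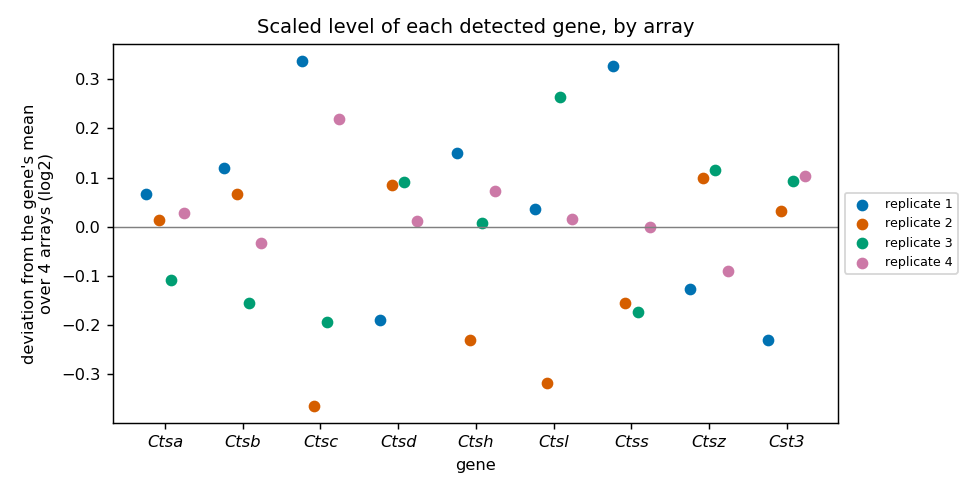
Deviation (log2) of the scaled level of each of the 9 detected genes from its own mean over the 4 arrays, 1 point per array. Ctsc and Ctss are highest on replicate 1, Cst3 and Ctsd lowest there, and Ctsl is highest on replicate 3. For Ctsd the place of replicate 1 turns round after quantile normalization.

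The spread of the 9 detected genes over the arrays was set beside that of all genes. Their median SD was 0.16, against 0.23 over the 5824 named genes with a probe detected on all 4 arrays, whose quartiles were 0.16 and 0.32. Of the 9 genes, 6 lay below the median of all genes and 3, Ctsc, Ctsl and Ctss, above it. Those above were Ctsb, Ctsc and Ctss after quantile normalization, Ctsc and Ctss after normexp correction, and Ctsc alone when arrays were scaled to the median or over all probes. None of the 9 had an SD above 0.5, as 5.6% of all genes did, and for none did the arrays span 2-fold or more, as they did for 8.96% of all. The SD of Ctsa exceeded that of 4.00% of all genes and the SD of Ctsc that of 77.2%. The genes compared were not matched for brightness or number of spots, and Ctsa, Ctsd, Ctsl and Cst3 are averages over up to 10 spots. These places describe the arrays and are no test.

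**Figure D4:**
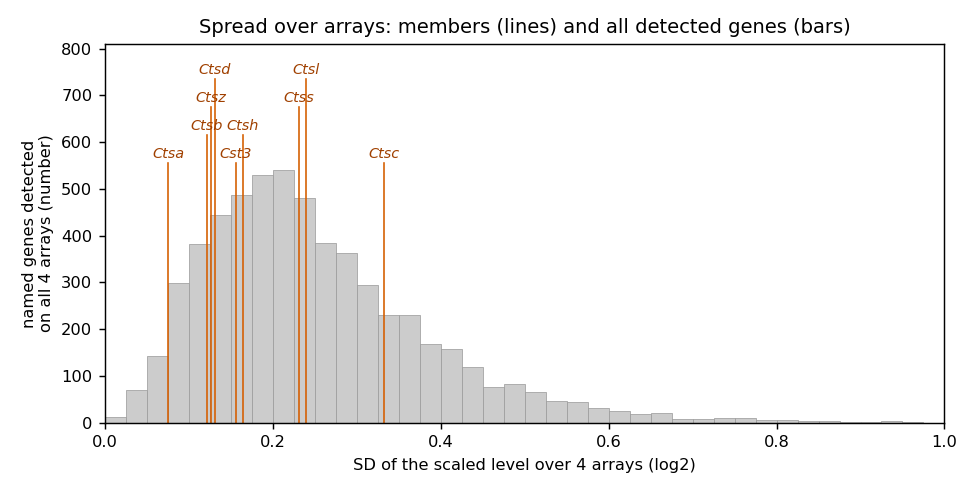
SD of the scaled level over the 4 arrays (log2) for the 5824 named genes detected on all arrays (bars, number of genes per step of 0.025) with the 9 detected genes as lines. The lines run from 0.076 for Ctsa to 0.33 for Ctsc, and 9 genes with an SD above 1 lie beyond the axis.

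In the main scaling the 9 genes were not high or low together on any array. Their median deviation from their own means was 0.067, 0.014, 0.0073 and 0.017 on replicates 1 to 4. Over all 5824 genes it was 0.057, −0.013, −0.0055 and −0.014. On each array 5 or 6 of the 9 genes were above their mean, but on replicate 2 only 2 were after quantile normalization, where 50.4% of all genes were, and 2 after normexp correction, where 66.8% of all genes were. Replicate 1 was the highest array for 5 of the 9, against 37.8% of all genes in the main scaling, and the lowest for 3, Ctsd, Ctsz and Cst3, against 25.0% of all. Replicate 2 was lowest for 3, Ctsc, Ctsh and Ctsl, against 32.2% of all genes, and replicate 3 was highest for 3, against 19.1%. These places moved with the scaling: replicate 1 was highest for 2 of the 9, Ctsc and Ctss, when scaled to the median (27.0% of all genes) and for Ctss alone over all probes (23.8%), where Ctsa, Ctsb and Ctsh were highest on other arrays. After normexp correction it was highest for 5, against 20.5% of all genes, and after quantile normalization for 6, against 34.4%.

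The ratio of 2 genes on 1 array does not depend on the factor by which the array is scaled. Relative to Cst3 on the same array, 7 of the 8 detected cathepsin genes, all but Ctsd, were highest on replicate 1, as were 69.8% of all genes set against Cst3, which is itself lowest there. After normexp correction all 8 were, against 46.9% of all genes, with column position subtracted all 8, against 69.9%, and after quantile normalization all but Ctsl, against 59.0%. The ratio of Ctsc to Cst3 changed most in the main processing, by 1.95 times between replicates 1 and 2, and that of Ctss by 1.77 times between replicates 1 and 3. For Ctsh, Ctsl, Ctsb and Ctsa the ratio changed by 1.56, 1.53, 1.51 and 1.41 times. It changed by 1.23 times for Ctsz and by 1.105 times for Ctsd. The SD of the log2 ratio was 0.065 for Ctsd and 0.13 for Ctsz, and ran from 0.21 for Ctsa to 0.44 for Ctsc among the others. Over 5823 genes set against Cst3 the median SD was 0.29, and 1.24% were below that of Ctsd. Normexp correction and quantile normalization act on each signal by its size and do alter ratios. The normexp values also start from median spot and background signals, not from the processed intensity. After normexp correction the ratio of Ctss changed most, by 1.83 times, with Ctsc at 1.73, Ctsb at 1.474, Ctsz at 1.472 and Ctsd lowest at 1.196. After quantile normalization that of Ctsb changed most, by 1.85 times, with Ctsc at 1.77, Ctss at 1.66, Ctsd at 1.354 and Ctsz lowest at 1.25. Which ratios were widest and which were steadiest thus depended on the processing, and Ctsd and Ctsz did not stand apart in all of it.

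**Figure D5:**
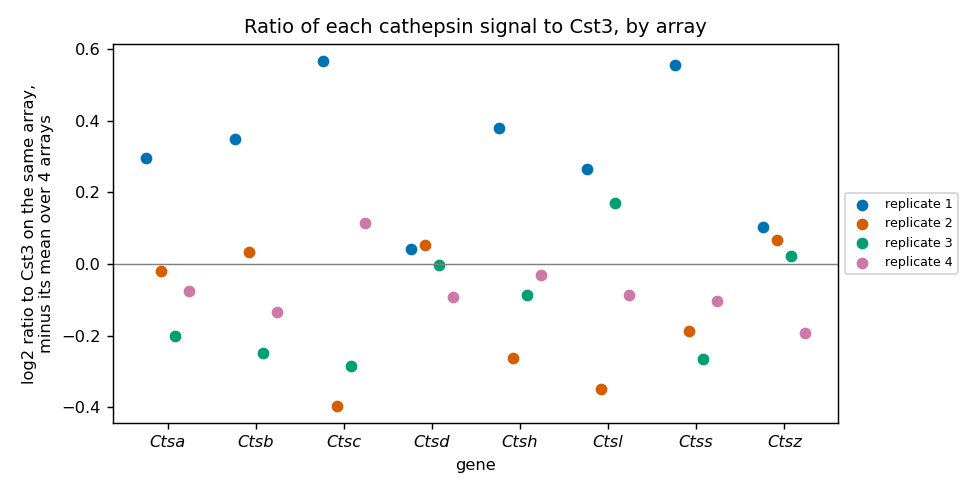
Log2 ratio of each detected cathepsin gene to Cst3 on the same array, minus its own mean over the 4 arrays, 1 point per array. Ctsc is at 0.57 and Ctss at 0.56 on replicate 1, while the points of Ctsd stay between −0.091 and 0.052.

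Other genes of the pathway were read from lists. Among 10 other measured cathepsin genes only Ctsf, for the cysteine protease cathepsin F, was detected on all 4 arrays, at −0.61 ± 0.13 (SD, n = 4). Ctse, Ctsg, Ctsw and the genes Ctsj, Ctsm, Ctsq, Ctsr, Cts7 and Cts8, known in rodents from the placenta, were detected on none. Of 10 measured genes of the cystatin superfamily besides Cst3, only Cstb, for the cytosolic inhibitor stefin B, was detected on all 4, and Cst6, Cst7, Cst8, Cst11, Csta, Cst5, Kng1, Fetub and Ahsg on none. The levels of Cstb were 2.90, 3.06, 3.66 and 3.84 on replicates 1 to 4, with an SD of 0.45. Cst3 and Cstb were thus both highest on replicate 4 and lowest on replicate 1, except that Cstb was lowest on replicate 2 after quantile normalization. In the main scaling 15.1% of all genes were highest on replicate 4 and 25.0% lowest on replicate 1.

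Among 8 measured genes of other lysosomal proteases, 5 gave signal on all 4 arrays, Prcp on 3, and Cpvl and Cpq on none. Lgmn encodes legumain, which cleaves some single-chain cathepsins to their 2-chain forms, and was at −1.08, −1.38, −1.64 and −1.64 on replicates 1 to 4. Tpp1 was at −1.64 ± 0.15, Scpep1 at −0.19 ± 0.14 and Dpp7 at 1.48 ± 0.021 (SD, n = 4 each). Napsa, for the aspartic protease napsin A known from type II lung epithelium and alveolar macrophages, was at 2.36, 3.07, 2.29 and 2.43, highest on replicate 2 under all 5 alternatives too. None of the 7 epithelial markers was detected on any array, Sftpb and Sftpc of type II cells among them.

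All 12 measured genes of cathepsin sorting and of the lysosomal membrane and cofactors were detected on all 4 arrays. The mannose 6-phosphate receptor genes M6pr and Igf2r were at 1.01 ± 0.23 and −0.11 ± 0.23, and the sorting receptor gene Sort1 at −2.89 ± 0.24 (SD, n = 4 each). Gnptg, a subunit of the enzyme that adds the mannose tag, was at −0.31 ± 0.057 and Nagpa, which uncovers it, at −3.93 ± 0.30. Psap, which encodes the saposins, was at 2.33 ± 0.27 and Lrp1 at −3.59 ± 0.41. The membrane protein genes Scarb2, Lamp1 and Lamp2 were at −2.46 ± 0.19, −0.49 ± 0.069 and −0.33 ± 0.25.

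TFEB-type factors and their regulators made up a list of 10 measured genes, of which 8 gave signal on all 4 arrays, Tfec on 3 and Fnip1 on none. Tfeb was at −2.96, −1.99, −2.50 and −3.00 on replicates 1 to 4 and Mitf at −2.99, −1.71, −1.59 and −2.30. Both were lower on replicates 1 and 4 than on replicates 2 and 3 in the main scaling and all 5 alternatives. Tfe3, the other such factor detected on all 4 arrays, ran the other way in the main scaling. Its levels were 0.55, 0.15, −0.031 and 0.35 on replicates 1 to 4. The SD of Mitf, 0.64, was the widest among the detected genes of the 5 lists. Tfe3 was at 0.25 ± 0.25, Flcn at 0.94 ± 0.32, Fnip2 at −2.30 ± 0.40, Mcoln1 at −0.28 ± 0.19, Rragc at 1.69 ± 0.16 and Rragd at −4.37 ± 0.27 (SD, n = 4 each). No correlation between genes was computed, because it would rest on 4 arrays.

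The cells carried macrophage markers in part. Of 10 macrophage markers 7 were detected on all 4 arrays, Mrc1 on 1, and Adgre1 and Cd74 on none, and of 7 measured alveolar macrophage markers 4 were detected on all 4 and Marco, Car4 and Chi3l1 on none. Cd68, a glycoprotein of the lysosome membrane, was at 2.28 ± 0.14 (SD, n = 4). Of 6 fibroblast markers, Col1a1 was detected on 1 array and the others on none. Among 5 neutrophil and mast cell markers S100a8 was detected on 2 arrays, and Elane, S100a9, Cpa3 and Kit on none. Of 4 dendritic cell markers Batf3 was detected on all 4 arrays and Ccr7, Zbtb46 and Xcr1 on none. The part of other cells in the values above was not tested.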

How the data were processed

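Spot intensity was deposited as Agilent Feature Extraction 11.0.1.1 wrote it, per the file headers: background-subtracted, detrended within each array, set to a small positive value for low spots and not normalized between arrays. All 4 arrays lay on 1 slide, per the file headers. Of 45598 gene probes, 21109 (46.3%) were named by matching accessions to a RefSeq table of GRCr8.

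Control and outlier spots were left out of levels, and spots of a probe were averaged as log2 intensity. A probe was detected when more than 50% of its spots were well above background. Levels are relative to the array's 75th percentile over the 22.9% of probes detected on all arrays. A gene's level is that of its brightest detected probe. The normexp alternative used median signals with an offset of 50 (limma 3.58.1, R 4.3.3), and the rest Python 3.11.15, numpy 2.4.6 and pandas 2.3.3. Depth on arrays is signal over background, and their number, 4, limits the precision. Across genes, arrays correlated at 0.977 to 0.993.

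The members, lists and motifs were chosen with earlier results of these data known. All 10 members were to be named, and of each list the genes detected on all arrays, with values, and those on none. No comparison between groups was possible with 1 group, and within it Dixon's gap test was applied to each gene. Promoter windows matched 9 of the 10 genes, all but Ctsb. Scaling and spread were tested on simulated data.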

Additional observations from a re-analysis of the deposited data

Results flagged for a closer look

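None of the 9 detected genes had an array that stood apart from the other 3 by Dixon's gap test at the 95% level, a test that 6.03% of all 5824 genes passed. The largest gap was that of Cst3 on replicate 1, which took up 0.787 of the gene's range over the arrays.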

How the results depend on the processing

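The count of 9 detected genes was the same with 3 other detection rules and without each replicate. The share of all named genes was 43.2% for signal above the 99th percentile of negative controls. It was 35.3% where any spot, and 35.1% where all spots, had to be well above background. Without 1 replicate each it was 35.2% to 37.8%. The median SD of the 9 genes ran from 0.138 to 0.183 over normexp correction, quantile normalization, scaling to the median or over all probes, the mean over probes, outlier spots kept and column position subtracted, the last added after seeing the data. It was 0.160 over 10 genes without the filter on dim probes and 0.109 to 0.177 without 1 replicate each. In each of these runs most of the genes lay below the median of all genes. The median deviation on replicate 2, 0.014, was −0.146 after quantile normalization, and the cause was not tested. Its sign also turned after normexp correction, at −0.118, and that of replicate 1 when scaled to the median (−0.012) or over all probes (−0.034). That of replicate 3, 0.0073, turned after quantile normalization (−0.0022), over all probes (−0.018) and with column position subtracted (−0.0082). On replicate 1 the median deviation of all genes itself was 0.057, and −0.081 after normexp correction. The share of all genes with an SD above 0.5 was 5.6%, 2.87% after normexp correction, 45.4% without the filter, where Ctsk joins them, and 2.74% to 9.07% without 1 replicate. The share with a 2-fold range was 8.96%, and 4.84%, 52.8% and 2.21% to 7.79% in the same runs. Single SDs moved by over 1.5 times for Ctsd (0.078) and Ctsl (0.147) after normexp correction, Ctsa (0.138) and Ctsb (0.288) after quantile normalization, and Ctsd (0.201) and Ctsh (0.108) when scaled over all probes. Leaving out a replicate moved 7 of 36 single SDs that far, each to a lower value, given with its gene above. No paired analysis was possible because the 4 samples form 1 group. A block for the slide was not run, since all arrays lay on 1. Genes printed at 1 spot, Ctsb, Ctsc, Ctsh, Ctsk, Ctss and Ctsz, have no spot error.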
